A study of Mus musculus with 44 samples.

Results

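Of the 44 RNA-seq libraries, 10 were compared here, chosen by their labels: 5 from control mice that received tumour cells at zeitgeber time 3 (ZT3) and 5 from control mice that received them at ZT15. Zeitgeber time counts the hours after lights-on in mice kept in 12 h of light and 12 h of darkness, so ZT3 is a morning timepoint and ZT15 lies in the dark phase. The tumour cells were B16-F10-OVA, a mouse melanoma line that expresses the model antigen ovalbumin, placed under the skin of the flank of female mice. The draining lymph nodes were taken the day after at the same ZT, and CD45+CD11c+MHCII high cells, a gate for dendritic cells (DCs), were sorted. The labels call the control mice WT, and their strain and Cre status are not stated for these libraries. Each library came from a different mouse, and a figure legend of the study names independent experiments without a map from mice to them. For reference, 3 control mice per timepoint had a sham injection of PBS, and 3 mice per timepoint labelled KO received tumour cells. The KO mice carry a floxed *Arntl* (*Bmal1*) and a Cre recombinase driven by *Clec9a*, which is active in conventional DCs and their precursors. Control mice with tumour cells were also sampled at ZT9 and ZT21. They helped to estimate the spread between mice.

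In the circadian clock, BMAL1 (encoded by *Arntl*) and CLOCK bind E-boxes and activate the period and cryptochrome genes, whose proteins repress them in turn. The REV-ERB receptors (*Nr1d1* and *Nr1d2*) repress *Arntl*, and DBP is an output factor that binds D-boxes in other genes. DCs that carry antigen to a lymph node express the chemokine receptor CCR7 and the actin-bundling protein fascin (*Fscn1*), and they present peptides to T cells together with co-stimulatory ligands such as CD80 and CD86.

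The deposited values are CPM, read counts scaled to 1000000 per library, and the 10 libraries had 20406761 to 28962674 reads on genes, so that 1 read corresponded to at most 0.049 CPM. The markers of the sorted cells were abundant in every library. *Ccr7* ranged from 4338 to 6342 CPM, *Fscn1* from 4151 to 7294 CPM, and *Cd74*, the invariant chain of MHC class II, from 9341 to 17565 CPM. The library of ZT3 replicate 3 stood apart. It correlated with the other ZT3 libraries with r of 0.958 to 0.967, whereas the other pairs of ZT3 libraries had r of 0.973 to 0.983 and the pairs of ZT15 libraries r of 0.969 to 0.980 (across genes, on the log2 scale). It held the lowest ZT3 value for 49.8% of the 11963 genes tested. Results are therefore also given without it.

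No gene differed between ZT3 and ZT15 at an adjusted p under 0.05 in limma, with 0 genes higher (0.0%) and 0 genes lower (0.0%) at ZT3 out of 11963. At an unadjusted p under 0.05, 662 genes (5.53%) had the higher mean at ZT3 and 381 genes (3.18%) the lower mean. The 5 ZT3 mice were all above the 5 ZT15 mice for 75 genes (0.627%) and all below them for 110 genes (0.92%). The median log2 difference (ZT3 minus ZT15, on log2(CPM + 0.5)) over all genes tested was 0.05, and 58.5% of the genes had a difference above 0. With median-of-ratios scaling these values were 0.01 and 51.6%.

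Without ZT3 replicate 3, 77 genes (0.644%) were higher and 15 genes (0.125%) lower at ZT3 in limma, of which 26 differed by at least 2-fold. At an unadjusted p under 0.05 the counts were then 1743 genes higher (14.6%) and 534 lower (4.46%). The split of higher and lower genes moved with the scaling. With median-of-ratios scaling, leaving out the same library gave 22 higher and 23 lower genes. At an unadjusted p under 0.05 it then gave 1047 higher and 1074 lower genes. The shares of 14.6% and 4.46%, set beside the lists below, and the list counts without this library therefore hold for the CPM scaling only. Of the 77 higher genes, ZT3 replicate 3 lay below all other ZT3 mice for 74, and of the 15 lower genes it lay above them for 12. The median SD between mice was 0.33 on the log2 scale at ZT3, 0.23 without replicate 3, and 0.29 at ZT15.

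**Figure D1:**
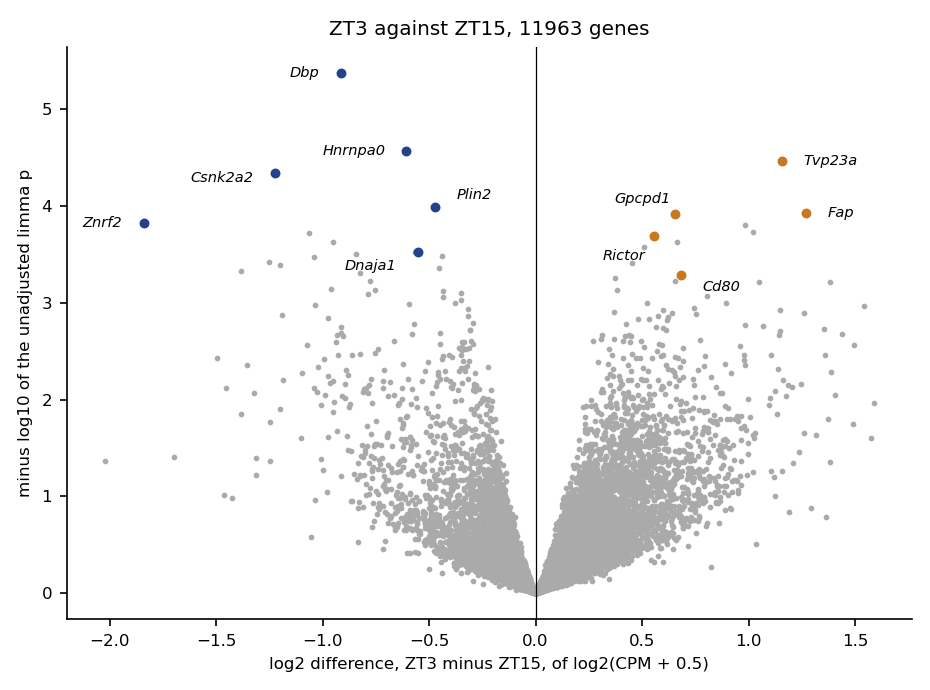
Log2 difference (ZT3 minus ZT15 of log2(CPM + 0.5), x axis) against minus log10 of the unadjusted limma p (y axis), 1 point for each of the 11963 genes tested. Named points in blue had the lower mean at ZT3 and those in orange the higher mean. None passed the adjusted threshold, and *Dbp* lies highest.

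Among the clock genes, the output factor *Dbp* (chr7:45705100-45710203, GRCm38.p6) had the smallest p of all genes tested. Its level in the ZT3 mice was 27.66, 26.39, 15.28, 29.01 and 20.09 CPM, and in the ZT15 mice 39.94, 46.31, 42.67, 42.91 and 48.13 CPM. Every ZT15 mouse was above every ZT3 mouse. The means were 23.7 ± 5.81 and 43.99 ± 3.23 CPM (SD, n = 5 and 5), the log2 difference was −0.91 with a standard error (SE) of 0.14, and the adjusted p in limma was 0.0503. Without ZT3 replicate 3, the lowest of the ZT3 mice, the log2 difference was −0.77 with an adjusted p of 0.0113. At ZT9 and ZT21, the control tumour mice had *Dbp* at 39.5 ± 3.51 and 30.04 ± 2.94 CPM (SD, n = 5), between the levels of ZT3 and ZT15. *Dbp* shares 741 bases with *Sphk2* on chromosome 7, and 97.7% of the libraries held a fraction of a read for it. How the fractions arose is not stated.

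*Arntl* (chr7:113178471-113314126) had the opposite order, with 24.44, 12.39, 11.78, 17.3 and 16.58 CPM at ZT3 and 9.602, 15.21, 8.666, 12.33 and 11.76 CPM at ZT15. The groups overlapped, with 16.5 ± 5.07 against 11.5 ± 2.56 CPM, a log2 difference of 0.48 (SE 0.19) and an adjusted p of 0.458 in limma. *Per1*, a repressor of the clock, was at 14.72, 11.73, 6.799, 11.86 and 10.12 CPM at ZT3 and at 12.25, 16.13, 16.5, 14.49 and 10.98 CPM at ZT15. Here too the groups overlapped, and the log2 difference was −0.36 (SE 0.21, adjusted p in limma 0.634). The difference was −0.20 without replicate 3. Of the 7 activators and nuclear receptors, *Arntl* had an unadjusted p under 0.05 with the higher mean at ZT3 and *Npas2*, a relative of CLOCK, with the lower mean, and *Npas2* did not exceed 1.27 CPM in any of the 10 mice. Of the 7 repressors tested none had such a p, and their median log2 difference was −0.05, and 0.01 without ZT3 replicate 3. Of the 4 output factors only *Dbp* had one. Over all genes tested, the shares at this threshold were 5.53% with the higher and 3.18% with the lower mean. *Nr1d2* was at 30.17, 23.72, 34.84, 33.66 and 23.72 CPM at ZT15 and at 32.18, 24.01, 8.665, 41.03 and 22.17 CPM at ZT3, where replicate 3 was the lowest, and its log2 difference was −0.33 with and 0.01 without this mouse. *Per2* (0.98 to 5.14 CPM in the 10 mice) and *Nr1d1* (0.98 to 6.86 CPM) overlapped entirely.

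The promoters of *Dbp* and *Per1* are printed here because these are the output factor and the repressor described above. They are bases upstream of the start site in RefSeq (GRCm38.p6, plus strand), up to the first exon of a coding transcript: chr7:45704997-45705087 for *Dbp* and chr11:69098699-69098947 for *Per1*. Matches in capitals come from a search of both strands for the E-box CACGTG, the D-box TTANGTAA, the ROR element TAGGTCA, the heat shock element GAANNTTC, the sterol regulatory element TCACNCCAC, the cyclic AMP response element TGACGTCA and the AP-1 site TGANTCA.
Dbp: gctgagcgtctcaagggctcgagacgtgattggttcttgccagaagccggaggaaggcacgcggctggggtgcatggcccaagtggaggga
Per1: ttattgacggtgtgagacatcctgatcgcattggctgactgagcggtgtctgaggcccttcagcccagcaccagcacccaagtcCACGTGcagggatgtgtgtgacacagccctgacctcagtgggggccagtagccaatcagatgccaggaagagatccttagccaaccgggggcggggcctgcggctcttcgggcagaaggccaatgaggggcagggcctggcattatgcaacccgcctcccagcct
The annotated span of *Per1* begins further upstream, so that its stretch lies before 1 of its start sites and inside the gene. The same holds for those of *Cd80* and *Ldha* printed further on. The *Per1* stretch held 1 E-box. The *Dbp* stretch, which is shorter (91 bases), held none of these letters and is not comparable with the shares that follow. The windows of 250 bases of all promoters held an E-box in 6.02%, a D-box in 2.06%, a ROR element in 2.23%, a heat shock element in 6.69%, a sterol regulatory element in 1.05%, a cyclic AMP response element in 1.55% and an AP-1 site in 6.75%.

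**Figure D2:**
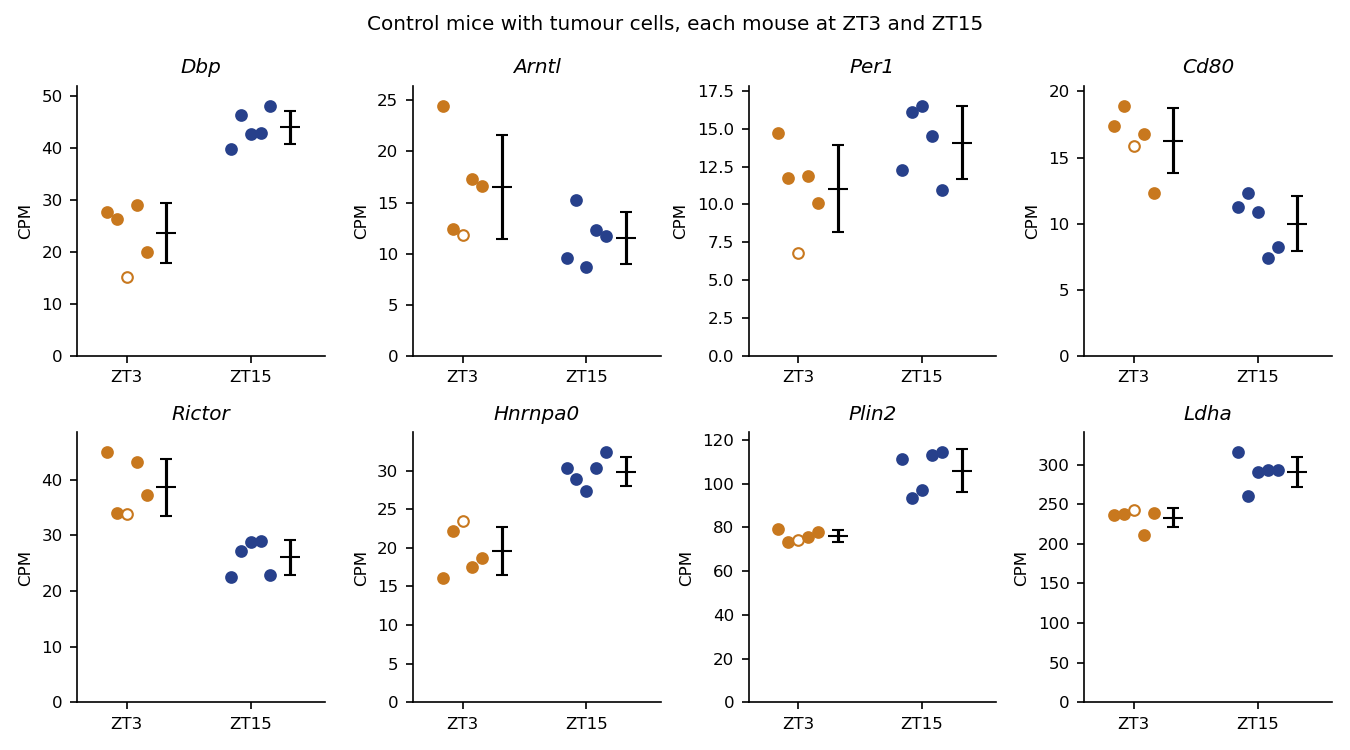
Level in CPM (y axis, from 0) of 8 genes in each control mouse with tumour cells at ZT3 (orange, replicate 3 as an open circle) and ZT15 (blue), with the mean and SD as bars. The 5 mice of a timepoint do not overlap with those of the other for *Dbp*, *Cd80*, *Rictor*, *Hnrnpa0*, *Plin2* and *Ldha*, and they do for *Arntl* and *Per1*.

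*Cd80* (chr16:38457430-38495958), a ligand of CD28 and CTLA4 on T cells that the study followed, was higher at ZT3. Its level was 17.39, 18.9, 15.91, 16.8 and 12.34 CPM at ZT3 and 11.23, 12.3, 10.91, 7.391 and 8.233 CPM at ZT15. All 5 ZT3 mice were above all 5 ZT15 mice, although the lowest of the former and the highest of the latter were 12.34 and 12.3 CPM. The means were 16.3 ± 2.45 and 10.01 ± 2.1 CPM (SD, n = 5 and 5) and differed by 6.25 CPM, with p = 0.00794 in a two-sided exact permutation test, the smallest that the 252 arrangements allow. The study had singled out this gene in the same libraries, so this p is not independent evidence of its direction. In the fit across all genes its log2 difference was 0.68 (SE 0.16) and its adjusted p 0.228 in limma. At ZT9 it was at 13.98 ± 3.14 CPM and at ZT21 at 11.5 ± 0.929 CPM (SD, n = 5).

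The region upstream of *Cd80* (chr16:38458683-38458932, GRCm38.p6 of RefSeq, plus strand) is shown because *Cd80* is the gene the comparison was tested on singly. It held 1 sterol regulatory element and 1 AP-1 site, in capitals. The study reports E-boxes in the promoter region of *Cd80* and rhythmic BMAL1 binding there in cultured DCs. The search here covered 250 bases before 1 start site and only the letters CACGTG. It cannot speak to E-boxes elsewhere or with other letters.
Cd80: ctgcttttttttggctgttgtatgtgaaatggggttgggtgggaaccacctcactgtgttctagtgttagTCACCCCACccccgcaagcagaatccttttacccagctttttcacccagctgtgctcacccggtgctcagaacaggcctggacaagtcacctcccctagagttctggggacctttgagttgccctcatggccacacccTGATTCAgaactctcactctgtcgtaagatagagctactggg

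The other co-stimulatory genes differed less. *Cd86*, the second CD28 ligand, ranged from 126.7 to 217.2 CPM at ZT3 and from 127.9 to 178.6 CPM at ZT15, and *Cd40*, the receptor through which helper T cells activate DCs, from 720.6 to 1076 and from 696.6 to 875.7 CPM. For both, the groups overlapped, with log2 differences of 0.15 (SE 0.16) and 0.13 (SE 0.11). *Icosl*, the ligand of the T cell co-stimulator ICOS, was at 497.2, 493.5, 266.7, 540.4 and 474.0 CPM at ZT3 and at 316.1, 307.7, 451.8, 403.3 and 302.3 CPM at ZT15. At ZT3, replicate 3 lay below all ZT15 mice and the other 4 mice lay above them, and the log2 difference was 0.33 with and 0.51 without it (adjusted p in limma 0.586 and 0.0533). Of the 15 co-stimulatory and co-inhibitory genes tested, 1 (*Cd80*) had an unadjusted p under 0.05, against 5.53% of all genes, and 10 had the higher mean at ZT3, with a median log2 difference of 0.15 against 0.05 over all genes. The count was 4 without ZT3 replicate 3, against 14.6%.

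*Rictor* (chr15:6708349-6800401), a defining subunit of the mTOR complex that phosphorylates AKT, also had a higher level at ZT3 in every mouse. It was at 44.89, 33.95, 33.86, 43.14 and 37.3 CPM at ZT3 and at 22.46, 27.26, 28.8, 28.97 and 22.88 CPM at ZT15. The groups did not overlap, and the log2 difference was 0.56 (SE 0.12, adjusted p in limma 0.199, and 0.0377 without ZT3 replicate 3). With median-of-ratios scaling, leaving out this library did not bring *Rictor* past the threshold. *Pik3r1*, the regulatory subunit of PI3K, was at 105.5 to 116.7 CPM at ZT3 and at 78.36 to 106.7 CPM at ZT15, so that 1 ZT15 mouse lay within the ZT3 range (log2 difference 0.26, SE 0.09, adjusted p in limma 0.402). *Map3k14*, the NF-kB-inducing kinase, was at 116.2, 118.6, 68.16, 136.4 and 149.8 CPM at ZT3 and at 64.0 to 108.0 CPM at ZT15. All ZT3 mice but replicate 3 were above the ZT15 mice, and the log2 difference of 0.40 (SE 0.17, adjusted p in limma 0.52) was 0.58 without it. *Mtor* overlapped between the times, with 27.7 ± 8.32 and 25.6 ± 5.21 CPM. Of the 22 mTOR and AKT genes tested, 3 had an unadjusted p under 0.05 with the higher mean at ZT3 (5.53% of all genes) and 1 with the lower mean (3.18%), and the median log2 difference was 0.10. Without ZT3 replicate 3 there were 5 with the higher mean, against 14.6%, and the median was 0.22.

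In the NF-kB pathway, 19 of 23 genes had the higher mean at ZT3, and 2 had an unadjusted p under 0.05, against 5.53% of all genes (median log2 difference 0.15). *Ikbkb*, the kinase that releases NF-kB from its inhibitor, was at 387.3, 331.7, 216.6, 439.2 and 444.1 CPM at ZT3 and at 257.0, 221.3, 292.5, 315.1 and 218.1 CPM at ZT15. The 4 ZT3 mice other than replicate 3 were above every ZT15 mouse, and replicate 3 was below every one. Its log2 difference was 0.45 (SE 0.17, adjusted p in limma 0.454), and without replicate 3 it was 0.62 (adjusted p 0.0441), a call that was lost with median-of-ratios scaling. The number of NF-kB genes with an unadjusted p under 0.05 and the higher mean then went from 2 to 12 of 23, and it has to be read against 14.6% of all genes. The median log2 difference of the list was 0.26 without replicate 3, against 0.11 over all genes. Outside this list, *Malt1* and *Tbk1*, a protease and a kinase of the same signalling routes, passed the test without replicate 3 and were singled out after their values were seen. *Malt1* also passed with array weights in all 20 libraries, and *Tbk1* did not. These weights counted replicate 3 at 0.227, the lowest of the 10 libraries compared, so that fit is not independent of leaving it out. *Malt1* was at 133 ± 29.0 CPM in the other 4 ZT3 mice, at 49.1 CPM in replicate 3 and at 74.2 ± 13.0 CPM at ZT15. *Tbk1* was at 93.9 ± 14.4, 41.0 and 60.8 ± 5.33 CPM in the same order.

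Most of the listed markers of conventional DCs that were tested had the lower mean at ZT3, 9 of 13 for cDC1 and 11 of 14 for cDC2, and so did 13 of 19 genes for antigen uptake. *Zbtb46*, a transcription factor of conventional DCs outside these lists, went the other way. Its log2 difference was 0.50, and 0.75 without ZT3 replicate 3 (adjusted p in limma 0.0353). Without this mouse it also passed with median-of-ratios scaling, but it did not pass with array weights. Conventional DCs fall into cDC1, which cross-present antigen to CD8+ T cells, and cDC2. Of the 13 cDC1 markers tested, 5 had an unadjusted p under 0.05 with the lower mean at ZT3 (3.18% of all genes) and 1 with the higher mean (5.53%), and the median log2 difference was −0.13. This median was −0.25 to −0.28 when any of ZT3 replicate 5, ZT15 replicate 4 or ZT15 replicate 5 was left out, and −0.07 without ZT3 replicate 3. *Xcr1*, *Naaa*, *Wdfy4* and *Cd36*, described below, all had the lower mean. The 1 marker with the higher mean at an unadjusted p under 0.05 is not described. The summed cDC1 markers overlapped, with 2707 to 3287 CPM at ZT3 (median 3028) and 2738 to 4101 CPM at ZT15 (median 2877), so that the sum had the higher median at ZT3. The mean log2 level over the list, in which every marker has the same weight, did not overlap and was lower at ZT3, with −0.37 to −0.11 at ZT3 and 0.04 to 0.30 at ZT15 relative to the mean of the 10 libraries. The chemokine receptor *Xcr1* (chr9:123852315-123862029), which marks cDC1, was at 6.119, 5.535, 4.177, 4.314 and 6.024 CPM at ZT3 and at 14.49, 12.64, 8.287, 14.44 and 24.45 CPM at ZT15. All ZT15 mice were above all ZT3 mice, with a log2 difference of −1.36 (SE 0.42, adjusted p in limma 0.341). *Naaa*, a lysosomal amidase, was at 15.69 to 22.46 CPM and 30.2 to 51.4 CPM, and *Wdfy4*, which is needed for cross-presentation, at 4.971 to 9.126 and 9.253 to 23.1 CPM. Neither gene overlapped between the times. *Cd36*, a scavenger receptor, overlapped (log2 difference −1.02, SE 0.32), as did *Cd8a* (43.84 to 83.63 and 67.39 to 99.77 CPM), which T cells express as well. T cell markers added up to 977 to 1173 CPM at ZT3 and 1033 to 1261 CPM at ZT15, and their part in *Cd8a* was not tested.

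Of the 14 cDC2 markers, 3 had an unadjusted p under 0.05, all with the lower mean at ZT3, against 3.18% of all genes (median log2 difference −0.32). *Ear2* was at 9.992, 12.2, 12.22, 13.32 and 11.9 CPM at ZT3 and at 30.2, 17.81, 16.57, 22.98 and 21.76 CPM at ZT15, with no overlap (log2 difference −0.82, SE 0.24, adjusted p in limma 0.319). *Clec10a*, a galactose-binding lectin, did not overlap either, with 2.03 to 3.809 against 5.434 to 8.712 CPM (log2 difference −1.04, SE 0.35), and 97.7% of the libraries held a fraction of a read for it. For *Ear2* this share was 77.3%, so its levels are less certain too. The summed cDC2 markers reached 1698 CPM in ZT3 replicate 3 and 977 to 1117 CPM in the other ZT3 mice, against 1066 to 1431 CPM at ZT15.

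The lectins and scavenger receptors that take up antigen had the lowest median of the lists, −0.50, against 0.05 over all genes. Of the 19 genes tested, 5 had an unadjusted p under 0.05, all with the lower mean at ZT3, against 3.18% of all genes. They were *Clec10a*, *Cd36*, *Cd207*, *Clec4n* and *Fcgr2b*. The mean was higher at ZT3 for 6 of the 19. *Cd207*, the lectin langerin, was at 20.95, 8.224, 8.398, 13.9 and 20.97 CPM at ZT3 and at 18.9, 19.8, 21.44, 21.16 and 22.93 CPM at ZT15. *Fcgr2b*, the inhibitory Fc receptor, was at 14.4 to 30.32 and 20.76 to 46.9 CPM. The groups overlapped for both. Markers of macrophages and monocytes had lower means at ZT3 too, for 13 of 15 genes (median −0.33), with 3 at an unadjusted p under 0.05 (3.18% of all genes), among them the complement gene *C1qc* (18.5 to 32.04 and 21.03 to 40.67 CPM). The sum of this list was 609 to 1095 CPM at ZT3 and 843 to 1085 CPM at ZT15, and its part in the lower uptake receptors was not tested. In the fit that leaves out ZT3 replicate 3, 5 cDC1 markers, 3 cDC2 markers, 6 uptake genes and 3 macrophage and monocyte markers had an unadjusted p under 0.05 with the lower mean, against 4.46% of all genes. The lists share members, so their counts are not separate. *Cd36* is in the cDC1 and uptake lists, and *Clec10a* is in the cDC2 and uptake lists. Fewer cells of a type and less RNA per cell cannot be told apart in such sorted bulk samples.

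MHC class II genes had the lower mean at ZT3 for 11 of 12 genes (median −0.26), with 2 at an unadjusted p under 0.05, against 3.18% of all genes. Without ZT3 replicate 3 there were 7, against 4.46%, and the median was −0.35. *H2-Aa* was at 1950, 2290, 3291, 2275 and 2500 CPM at ZT3 and at 3059, 2819, 2593, 3156 and 3763 CPM at ZT15. Without replicate 3, the highest of the ZT3 mice, the groups did not overlap, and the log2 difference went from −0.33 to −0.44 (adjusted p in limma 0.452 and 0.0554). *Ifi30*, a lysosomal thiol reductase for antigen processing, went from −0.30 to −0.41 in the same way. For MHC class I, 8 of 17 genes had the higher mean at ZT3 and none had an unadjusted p under 0.05. The migratory mature DC markers had the higher mean for 16 of 21 genes (median 0.12), with *Il4i1* among the 2 higher (5.53% of all genes) and *Anxa3* the 1 lower (3.18%) at an unadjusted p under 0.05. The higher ones were 7 without ZT3 replicate 3, against 14.6%. *Il4i1*, a secreted amino acid oxidase, was at 1615 to 1963 and 1400 to 1703 CPM, and *Anxa3* at 1015 to 1298 and 1271 to 1423 CPM.

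Of the 17 glycolytic enzymes tested, 13 had the lower mean at ZT3, and 8 (*Ldha*, *Tpi1*, *Pgam1*, *Eno1*, *Pgk1*, *Gapdh*, *Gpi1* and *Aldoa*) had an unadjusted p under 0.05, all with the lower mean, against 3.18% of all genes, and the groups did not overlap for 5 of them, against 0.92%. With ZT3 replicate 3 left out, 8 had such a p with the lower mean, against 4.46%, and 1 with the higher mean, against 14.6%. The median log2 difference of the list was −0.21. *Ldha* (chr7:46842274-46855627), which converts pyruvate to lactate, was at 236.2, 237.6, 242.5, 211.3 and 238.3 CPM at ZT3 and at 315.2, 260.7, 290.9, 293.6 and 292.5 CPM at ZT15. Its log2 difference was −0.32 (SE 0.08) with an adjusted p of 0.279 in limma, and of 0.0593 without ZT3 replicate 3. *Pgam1*, phosphoglycerate mutase, was at 127.5, 150.4, 150.6, 141.1 and 132.8 CPM at ZT3 and at 198.7, 165.1, 169.6, 178.5 and 176.2 CPM at ZT15. *Tpi1* (125.9 to 162.1 and 163.4 to 192.3 CPM), *Pgk1* (128.1 to 160.9 and 162.1 to 184.4 CPM) and *Gpi1* (178.6 to 207.9 and 212.7 to 242.2 CPM) were also lower in every ZT3 mouse than in every ZT15 mouse, by a narrow margin. *Eno1*, *Gapdh* and *Aldoa* overlapped, and nearly all libraries hold fractions of a read for them, as they do for *Dnaja1*, *Fcgr2b*, *Mx1*, *Il4i1*, *Tvp23a*, *Htra2* and *Myef2*, which are described in other paragraphs. Levels of these genes are less certain. The mean log2 level of the whole list overlapped between the times, with ZT15 replicate 2 the lowest of the 10 mice, as the plot of list means by mouse shows.

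The region upstream of *Ldha* (chr7:46845554-46845803, GRCm38.p6 of RefSeq, plus strand) is shown because this gene had the smallest p of the list. It held the E-box letters at 2 places and a cyclic AMP response element, in capitals. Of the 16 glycolytic genes with a promoter in the table, 2 held an E-box (*Ldha* and *Pfkfb3*), against 9.74% of all genes tested.
Ldha: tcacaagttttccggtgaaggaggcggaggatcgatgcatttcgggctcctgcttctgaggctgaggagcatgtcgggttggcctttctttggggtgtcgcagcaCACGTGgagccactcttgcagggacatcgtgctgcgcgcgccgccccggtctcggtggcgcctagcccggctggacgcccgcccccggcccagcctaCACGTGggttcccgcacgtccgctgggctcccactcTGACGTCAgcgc

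**Figure D3:**
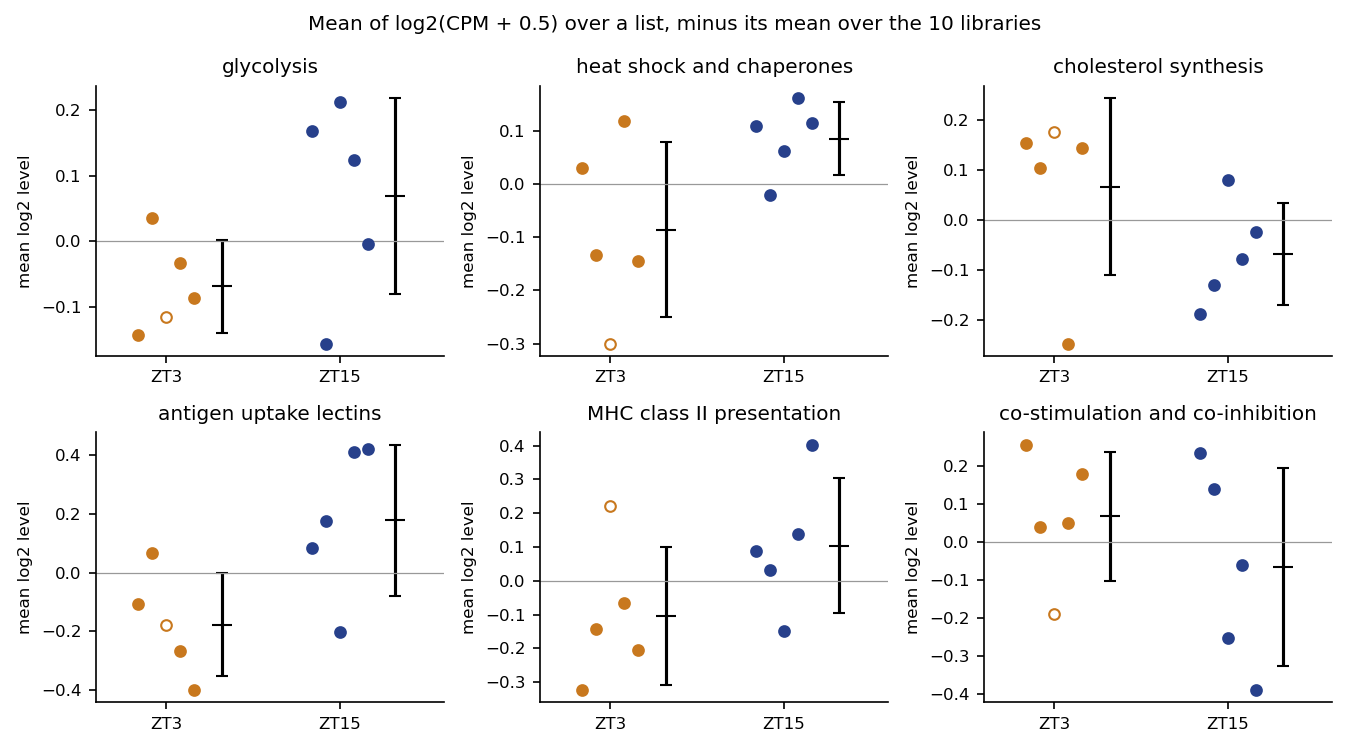
Mean of log2(CPM + 0.5) over the genes of a list, minus its mean over the 10 libraries (y axis), for each mouse at ZT3 (orange, replicate 3 as an open circle) and ZT15 (blue), with the mean and SD of each time as bars. The times overlap for all 6 lists, and replicate 3 is the lowest ZT3 mouse for heat shock and co-stimulation and the highest for MHC class II and cholesterol synthesis.

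In lipid metabolism, *Plin2* (chr4:86626910-86670217), the coat protein of lipid droplets, was at 79.39, 73.16, 74.3, 75.83 and 78.02 CPM at ZT3 and at 111.5, 93.56, 97.19, 113.2 and 114.3 CPM at ZT15. The ZT3 mice lay close together, below all ZT15 mice, and the log2 difference was −0.47 (SE 0.10, adjusted p in limma 0.199, and 0.0441 without ZT3 replicate 3). Genes of cholesterol synthesis had the higher mean at ZT3 for 15 of 20 genes (median 0.20), where 58.5% of all genes had a difference above 0. Of the 20, *Sc5d*, *Sqle*, *Lss* and *Msmo1* had an unadjusted p under 0.05, all with the higher mean, against 5.53% of all genes. Leaving out ZT3 replicate 3 gave 4 with the higher mean, against 14.6%, and 1 with the lower mean, against 4.46%. *Sqle*, squalene epoxidase, was at 74.44, 92.57, 73.59, 71.6 and 85.42 CPM at ZT3 and at 63.03, 52.49, 79.52, 55.16 and 58.51 CPM at ZT15. Only ZT15 replicate 3 reached the ZT3 range, and the log2 difference was 0.37 (SE 0.14). The sterol sensor *Insig1* showed the same order, with 41.07 to 54.49 CPM at ZT3 and 50.89 CPM in ZT15 replicate 3 against 35.72 to 39.25 CPM in the other ZT15 mice. *Nr1h3*, the oxysterol receptor LXR alpha, had the lower mean at ZT3 (log2 difference −0.40, SE 0.15). The mean of the list in ZT3 replicate 4 was the lowest of the 10 mice. None of the 12 genes of fatty acid synthesis had an unadjusted p under 0.05. Of the 44 subunits of oxidative phosphorylation none did either (median −0.10), and without ZT3 replicate 3 there were 10 with the lower mean, against 4.46% of all genes (median −0.17).

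Of 31 heat shock proteins and chaperones, 25 had the lower mean at ZT3 and 11 an unadjusted p under 0.05, all in this direction, against 3.18% of all genes (median log2 difference −0.16). Without replicate 3 there were 7, against 4.46%. *Dnaja1* (chr4:40722468-40734965), a cochaperone of HSP70, was at 269.2, 187.9, 160.9, 222.8 and 172.5 CPM at ZT3 and at 301.5, 313.1, 243.6, 291.5 and 316.3 CPM at ZT15. Only ZT3 replicate 1 lay within the ZT15 range, and the log2 difference was −0.55 (SE 0.12, adjusted p in limma 0.199). *Hspa8*, the constitutive HSP70, was at 2253, 2071, 1854, 2117 and 2051 CPM at ZT3 and at 2645, 2144, 2643, 2759 and 2578 CPM at ZT15, where replicate 2 was the only mouse within the ZT3 range. *Hsp90aa1* (240.6 to 370.2 and 315.5 to 442.7 CPM) and the mitochondrial chaperonin *Hspd1* (85.45 to 112.4 and 106.5 to 140.5 CPM) overlapped.

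The region upstream of *Dnaja1* (chr4:40722218-40722467, GRCm38.p6 of RefSeq, plus strand) is shown because *Dnaja1* had the smallest p of this list, and its heat shock element is in capitals. Such an element was found in 9 of the 25 chaperone genes with a promoter in the table, against 6.21% of all genes tested. These were *Cct2*, *Dnaja1*, *Dnajb6*, *Fkbp4*, *Hspa1a*, *Hspa1b*, *Hspb1*, *Hspd1* and *Hspe1*.
Dnaja1: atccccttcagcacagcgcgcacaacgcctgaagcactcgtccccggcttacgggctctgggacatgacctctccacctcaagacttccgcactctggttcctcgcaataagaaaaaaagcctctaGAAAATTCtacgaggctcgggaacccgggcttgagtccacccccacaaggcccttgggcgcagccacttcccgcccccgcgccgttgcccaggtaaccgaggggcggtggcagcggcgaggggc

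Other genes among the 12 with the smallest p in each direction were singled out after their values were seen. *Hnrnpa0* (chr13:58125879-58128556), an RNA-binding protein, was at 16.11, 22.18, 23.46, 17.55 and 18.72 CPM at ZT3 and at 30.35, 28.9, 27.31, 30.37 and 32.34 CPM at ZT15, with no overlap (log2 difference −0.61, SE 0.11, adjusted p in limma 0.135, and 0.0192 without ZT3 replicate 3). The ubiquitin ligase *Znrf2* had the largest difference of those with the lower mean, with 9.334 to 13.41 CPM at ZT3 and 60.04, 37.96, 21.89, 53.18 and 55.03 CPM at ZT15 (log2 difference −1.84, SE 0.39). *Csnk2a2*, a catalytic subunit of casein kinase 2, was at 7.397 to 9.954 and 15.05 to 25.81 CPM. *Qk*, an RNA-binding splicing regulator, was at 42.06 to 48.76 and 64.66 to 123.3 CPM, and *Mbd2*, which binds methylated DNA, at 57.06 to 78.53 and 94.81 to 134.7 CPM. In all 4 genes ZT15 replicate 2 or 3 was the lowest ZT15 mouse, above the ZT3 mice. The chemokine *Cxcl9*, which attracts CXCR3-bearing T cells, was at 11.31, 11.26, 16.13, 7.675 and 9.399 CPM at ZT3 and at 18.46, 26.12, 20.13, 14.7 and 31.56 CPM at ZT15, with ZT3 replicate 3 the only one within the ZT15 range (log2 difference −0.95, SE 0.21, adjusted p in limma 0.199, and 0.0341 without it).

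Of the genes with the higher mean at ZT3, *Gpcpd1*, a glycerophosphocholine phosphodiesterase, was at 286.0, 235.1, 174.8, 280.6 and 304.2 CPM at ZT3 and at 153.6, 174.4, 145.8, 181.4 and 145.1 CPM at ZT15. Replicate 3 alone lay within the ZT15 range, and the log2 difference was 0.66 (SE 0.14, adjusted p in limma 0.199) with it and 0.79 (0.0113) without it. *Nabp1*, a single-stranded DNA-binding protein, did not overlap, with 348.6 to 479.4 and 280.7 to 311.4 CPM (log2 difference 0.51, SE 0.11). *Fap*, the fibroblast activation protease, was at 5.588 to 10.12 and 1.243 to 4.55 CPM, also with no overlap (log2 difference 1.27, SE 0.26). *Tvp23a*, *Baiap2l1*, *Tcaim*, *Kifc2* and *Bod1* did not overlap either, and *Htra2* and *Myef2* did.

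From the remaining lists, a selection of the members with an unadjusted p under 0.05 is described. Further lists also held such members, against 5.53% of all genes with the higher and 3.18% with the lower mean. Among them were hnRNP and splicing factors (3 higher and 3 lower of 40) and Langerhans cell genes (2 and 1 of 8). Ribosome biogenesis genes (1 and 2 of 26) and Toll-like receptors and adaptors (0 and 2 of 20) held some too. Of the 14 T cell priming cytokines tested, 1 had the higher and 1 the lower mean at this threshold, against 5.53% and 3.18% of all genes. Without ZT3 replicate 3 there were 3 and 1, against 14.6% and 4.46%. The cytokine *Il27*, which acts on T cells, was at 6.47 to 9.725 and 3.463 to 9.31 CPM, and *Il18* at 16.18 to 22.04 and 18.54 to 28.06 CPM. Of 35 interferon-stimulated genes, 2 had the higher mean and 1 the lower mean at this threshold, against 5.53% and 3.18% of all genes (6 and 1 without ZT3 replicate 3, against 14.6% and 4.46%), and *Mx1*, an antiviral GTPase, varied widely within each time. It was at 269.1, 97.87, 47.49, 245.0 and 208.5 CPM at ZT3 and at 74.03, 145.1, 50.02, 52.8 and 44.59 CPM at ZT15 (log2 difference 1.13, SE 0.38, adjusted p in limma 0.38, and 0.0353 without ZT3 replicate 3). Of the 11 RNA-binding proteins that respond to temperature, 6 had the higher and 5 the lower mean at ZT3 (median log2 difference 0.004). At an unadjusted p under 0.05 there were 3 with the higher mean (*Srsf5*, *Cirbp* and *Srsf2*) and 1 with the lower mean (*Rbm3*), with and without ZT3 replicate 3, against 5.53% and 3.18% of all genes with it and 14.6% and 4.46% without it. *Srsf5* was at 199.7 to 335.0 and 122.7 to 293.8 CPM and *Cirbp* at 82.47 to 125.4 and 65.34 to 100.7 CPM, with log2 differences of 0.69 (SE 0.20) and 0.39 (SE 0.13), and the differences of *Srsf2* and *Rbm3* were 0.23 (SE 0.11) and −0.28 (SE 0.13). The glucocorticoid target *Tsc22d3* (GILZ) had the lower mean, with 199.0 to 258.7 and 243.2 to 332.7 CPM (log2 difference −0.41, SE 0.12). It was the 1 gene at this threshold among 16 of the glucocorticoid receptor and its targets, against 3.18% of all genes with the lower mean. Ribosomal proteins showed small differences, with the lower mean at ZT3 for 65 of 69 genes, a median of −0.10 and 1 gene at an unadjusted p under 0.05, against 3.18% of all genes. Without ZT3 replicate 3 there were 24 such genes with the lower mean, against 4.46% of all genes, and the median was −0.22.

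**Figure D4:**
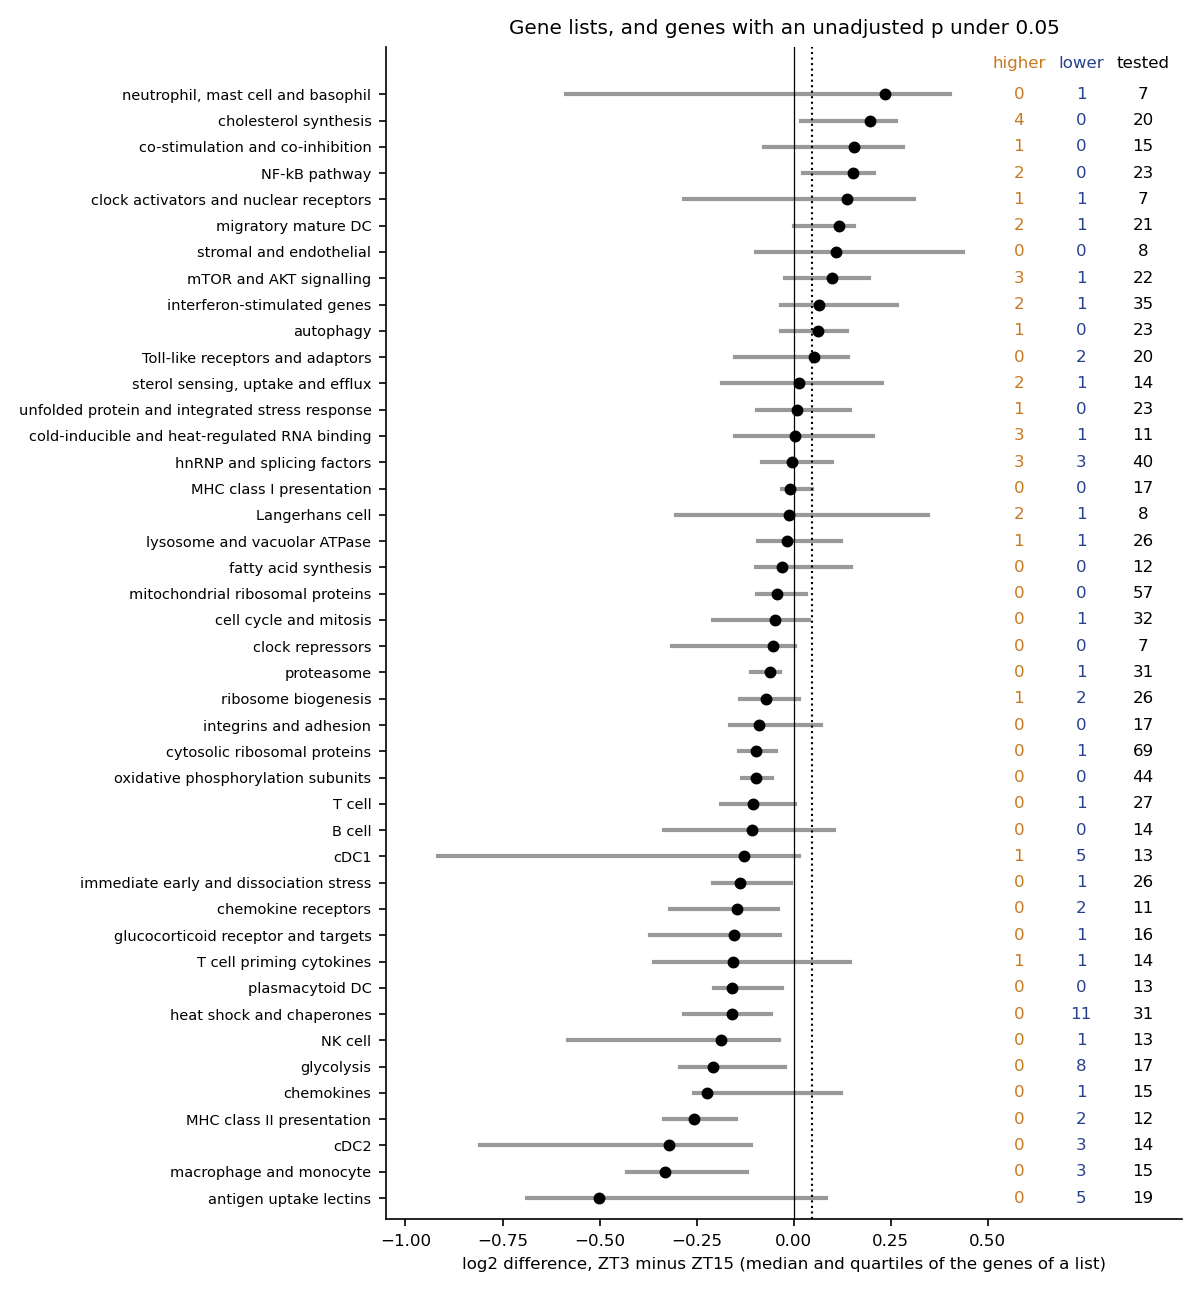
Median (point) and quartiles (bar) of the log2 differences, ZT3 minus ZT15, of the genes of each list with at least 7 genes tested (x axis), with the number of genes at an unadjusted limma p under 0.05 in each direction and the number tested. The dotted line is the median of 0.05 over all genes. The antigen uptake list lies lowest, and heat shock and glycolysis have the most genes at an unadjusted p under 0.05 with the lower mean.

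The summed markers of other cell types overlapped between the times. Gene by gene, the mean was lower at ZT3 for 11 of 13 plasmacytoid DC markers (median log2 difference −0.16) and 10 of 13 NK cell markers (−0.19). It was also lower for 20 of 27 T cell markers (−0.10) and 9 of 14 B cell markers (−0.11), but higher for 5 of 8 stromal and endothelial markers (0.11). Plasmacytoid DC markers added up to 294 to 330 CPM at ZT3 and 259 to 399 CPM at ZT15. B cell markers added up to 139 to 175 CPM at ZT3 and 138 to 181 CPM at ZT15, NK cell markers to 89.7 to 103 and 82.3 to 130 CPM, stromal and endothelial markers to 17.7 to 22.9 and 14.01 to 21.9 CPM, and melanoma and skin markers to 4.87 to 8.44 and 3.28 to 8.10 CPM. *Mlana*, a melanocyte antigen, had a median of 0 CPM. Erythroid and platelet markers summed to 1.96 to 36.3 CPM at ZT15 and to 3.36 to 6.56 CPM at ZT3. The NK receptor *Klre1* was at 0.2728 to 1.244 and 1.036 to 2.148 CPM, and the basophil and mast cell receptor *Fcer1a* did not exceed 1.264 CPM.

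The same difference between the times was then compared with that in sham-injected mice and in the libraries labelled KO. Both tests share the control tumour libraries and are not independent of each other. *Arntl*, the floxed gene, was not lower in the libraries labelled KO, with 19.8 ± 4.63 CPM at ZT3 and 17.6 ± 3.84 CPM at ZT15 (SD, n = 3), against 16.5 ± 5.07 and 11.5 ± 2.56 CPM in control mice with tumour cells (n = 5). A count over the whole gene need not reflect a deleted exon. No gene passed limma's adjusted threshold for a different change in sham (0.0%) or in the libraries labelled KO (0.0%), and at an unadjusted p under 0.05 there were 789 genes (6.6%) and 1072 genes (8.96%). Within the sham-injected mice, ZT3 against ZT15 gave 6 genes higher (0.0502%) and 7 lower (0.0585%) at an adjusted p under 0.05 in limma, and within the libraries labelled KO 9 higher (0.0752%) and 80 lower (0.669%), with 3 mice per timepoint. These counts were not tested against the 0 genes in control mice with tumour cells.

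*Dbp* had the lower level at ZT3 in all 3 groups. In sham-injected mice it was at 24.1 ± 3.75 CPM at ZT3 and 51.6 ± 9.04 CPM at ZT15, and in the libraries labelled KO at 16.2 ± 3.49 and 38.3 ± 2.62 CPM (SD, n = 3). The log2 differences were −1.08 (SE 0.18, adjusted p in limma 0.0217) and −1.24 (SE 0.18, adjusted p 0.000794). The change differed from that in control mice with tumour cells by 0.16 (SE 0.23) for sham and by 0.32 (SE 0.23) for KO, with adjusted p of 0.915 and 0.66 in limma.

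*Cd80* was at 12.1 ± 1.93 and 9.28 ± 2.55 CPM in sham-injected mice and at 13.9 ± 1.23 and 12.5 ± 3.51 CPM in the libraries labelled KO. Its log2 differences of 0.39 and 0.18 were smaller than the 0.68 of control mice with tumour cells, but the differences between them, 0.30 (SE 0.27) and 0.50 (SE 0.28), did not pass the test (adjusted p in limma 0.871 and 0.591). *Rictor* was at 47.2 ± 5.36 and 33.7 ± 12.4 CPM in sham-injected mice and at 43.7 ± 5.82 and 51.5 ± 10.5 CPM in the libraries labelled KO, where the mean was lower at ZT3. Against KO its change differed by 0.78 (SE 0.21, adjusted p in limma 0.23), and against sham by 0.01 (SE 0.25).

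Among the DC markers, *Xcr1* was at 28.4 ± 2.58 and 29.2 ± 16.7 CPM in sham-injected mice and *Naaa* at 72.4 ± 4.7 and 67.5 ± 8.24 CPM, with means above those in control mice with tumour cells (5.23 ± 0.93 and 14.9 ± 5.93 CPM for *Xcr1*, 18.9 ± 3.04 and 36.5 ± 8.74 CPM for *Naaa*). The changes differed from sham by −1.45 (SE 0.65) and −1.02 (SE 0.38), with adjusted p of 0.734 and 0.723 in limma. In the libraries labelled KO, *Xcr1* was at 19.4 ± 5.72 and 13.6 ± 0.451 CPM, with the higher mean at ZT3. *Naaa* was at 40.2 ± 5.16 and 65.4 ± 41.8 CPM there, with the lower mean at ZT3. From KO the changes differed by −1.81 (SE 0.72) and −0.39 (SE 0.47), with adjusted p of 0.444 and 0.798 in limma. *Ldha* was at 370 ± 25.3 and 384 ± 69.5 CPM in sham-injected mice and at 309 ± 40.4 and 532 ± 240 CPM in the libraries labelled KO. *Znrf2* was at 6.52 ± 2.48 and 8.82 ± 1 CPM in sham-injected mice and at 6.16 ± 1.91 and 6.6 ± 0.912 CPM in the libraries labelled KO, against 11.8 ± 1.98 and 45.6 ± 15.6 CPM in control mice with tumour cells, and its change differed by −1.38 (SE 0.57) and −1.72 (SE 0.55), with adjusted p of 0.723 and 0.346. *Dnaja1* had the lower mean at ZT3 in all 3 groups, with log2 differences of −0.64 in sham-injected mice and −0.66 in the libraries labelled KO.

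The genes with the smallest p of these tests had overlapping levels at ZT3 and ZT15 in the control tumour mice. For sham they were *Btbd1* (72.0 ± 10.2 and 80.5 ± 5.62 CPM in control tumour mice, 80.2 ± 2.68 and 49.3 ± 3.04 CPM in sham, adjusted p in limma 0.0989) and *Ang*, which was at most 0.476 CPM in the 10 control tumour mice. For KO they were *Crls1*, the cardiolipin synthase (16.3 ± 3.1 and 17.6 ± 2.98 CPM in control tumour mice, 2.99 ± 0.907 and 17.3 ± 5.5 CPM in the libraries labelled KO, adjusted p in limma 0.102), and *5031439G07Rik* (65.6 ± 9.65 and 64.8 ± 15.1 CPM, and 21.4 ± 1.67 and 69.3 ± 21.5 CPM). Also against KO, *Cxcl9* had the opposite order, with 25.4 ± 7.87 CPM at ZT3 and 13.5 ± 0.823 CPM at ZT15, and its change differed by −1.79 (SE 0.39, adjusted p in limma 0.102).

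**Figure D5:**
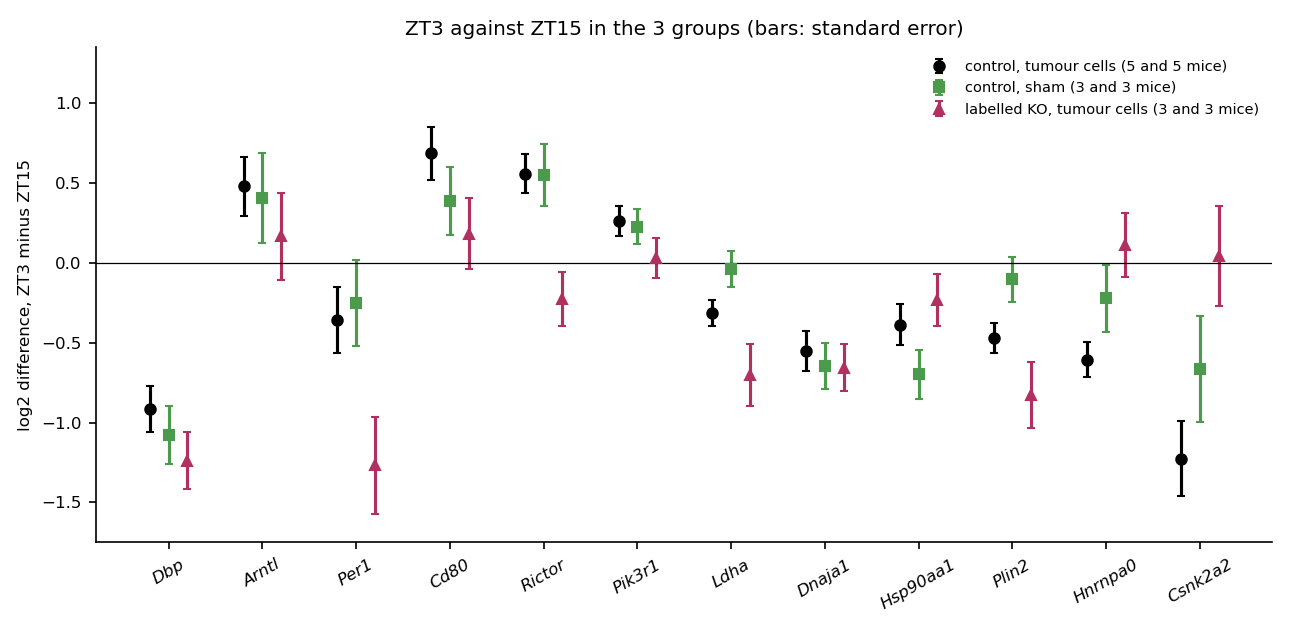
Log2 difference, ZT3 minus ZT15 (y axis), with its SE as a bar, for 12 genes in control mice with tumour cells (black circles, 5 and 5 mice), sham-injected control mice (green squares, 3 and 3) and libraries labelled KO (red triangles, 3 and 3). *Dbp* and *Dnaja1* are below 0 in the 3 groups, and *Rictor* is above 0 in control mice with and without tumour cells and below 0 in the libraries labelled KO.

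At the other timepoints of control mice with tumour cells, *Rictor* was at 43.6 ± 3.31 CPM at ZT9 and 37.5 ± 6.18 CPM at ZT21, *Plin2* at 70.1 ± 7.26 and 87.6 ± 8.38 CPM, and *Xcr1* at 4.96 ± 2.02 and 7.78 ± 4.91 CPM (SD, n = 5). For these 3 genes ZT15 held the extreme of the 4 means. *Znrf2* was at 25.02 ± 19.8 and 47.4 ± 18 CPM and *Hnrnpa0* at 21.9 ± 2.08 and 27.1 ± 2.68 CPM, so that ZT21 lay near ZT15 for them. *Ldha* was at 193 ± 14.2 CPM at ZT9 and 232 ± 14.8 CPM at ZT21, *Dnaja1* at 172 ± 9.8 and 229 ± 20.5 CPM, and *Per1* at 18.3 ± 2 and 11.3 ± 3.89 CPM.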

How the data were processed

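RNA from sorted cells was amplified with SMART-Seq v4, made into libraries with Nextera XT and sequenced as single reads. The authors used STAR for alignment (mm10), HTSeq 0.9.1 for counting and edgeR for scaling to library size. The values they deposited are CPM, 1000000 in total per library, for 14699 genes. Of the values of the 10 libraries, 88.8% to 90.1% are whole reads (tolerance 0.01 read), so read counts were not recovered for all genes and a count test was not run.

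A gene was tested where 5 or more of the 44 libraries reached 1 CPM (11963 genes). The main test was limma 3.58.1 (R 4.3.3) on log2(CPM + 0.5) in the 20 control tumour libraries, with 1 mean for each of 4 timepoints, the contrast ZT3 minus ZT15 and p-values adjusted over these genes by Benjamini and Hochberg. Fold changes of low genes are understated on this scale. Differences of change used 32 libraries and 8 means. *Cd80* was tested by a two-sided exact permutation of mean CPM (Python 3.11.15). The fits were tested on simulated data. No pair of libraries held identical values. The limma p-values set a difference of means against the spread between mice. Spread between experiments was not separated from it, because the mice are not mapped to experiments.

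Members and lists (46) were chosen with earlier results of these data known. Genes named were the up to 2 with the smallest p of each list, the genes the study names for these libraries, the 2 with the smallest p of each difference of change and, since none was called, the 12 with the smallest p in each direction. All members of some lists, such as the clock, glycolysis, chaperone and uptake lists, could also be named. So could genes with the smallest p in the fit without ZT3 replicate 3. Others were chosen after their values were seen, and not each of them is marked. Alternatives were other pseudocounts, scaling, filters and variance models, the replicate number as a block, and each mouse left out. Promoters are those of RefSeq (GRCm38.p6).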

Additional observations from a re-analysis of the deposited data

Results flagged for a closer look

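Single mice stood apart from the other 4 of their timepoint in 10 of the 194 groups of 5 that were examined (97 genes at ZT3 and ZT15, log2 scale). Chance sets apart about 1 in 20 groups. The measure is the gap to the nearest mouse as a share of the whole range, with a limit of 0.71.

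At ZT3, replicate 3 was the lowest mouse for *Icosl* (0.814) and for *Zbtb46* (0.732), a transcription factor of conventional DCs. *Zbtb46* was at 68.3 CPM in this mouse, at 167 ± 21.2 CPM in the other 4 and at 101 ± 21.02 CPM at ZT15. Replicate 4 was the lowest for *Ldha* (0.81) and the only ZT3 mouse with a value above 0 for *Tlr4* (1.0), at 0.2904 CPM.

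At ZT15, replicate 5 was the lowest mouse for *Zbtb46* (0.852), for *Cxcr4* (0.761), a chemokine receptor at 55.72 CPM in this mouse and 62.73 to 65.1 CPM in the others, and for *Cacnb3* (0.75), a calcium channel subunit of migratory DCs. Replicate 2 was the lowest for *Hspa8* (0.732) and replicate 3 for *Lgals3* (0.736), the galectin, while replicate 3 was the highest for *Insig1* (0.734).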

How the results depend on the processing

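The counts of 0 higher, 0 lower and 0 genes of at least 2-fold became 55, 22 and 20 with array weights, 2, 4 and 2 with all 44 libraries, and 22, 23 and 10 with median-of-ratios scaling and without ZT3 replicate 3 (chosen after seeing the data). An intensity trend, a mean of at least 10 CPM, median-of-ratios scaling and a pseudocount of 1 each gave 1 lower gene, *Dbp*. Leaving out 1 mouse at a time gave 0 to 77 higher, 0 to 15 lower and 0 to 26 genes of at least 2-fold, each highest without ZT3 replicate 3. Without ZT15 replicate 5 the 1 lower gene was *Fcer1a*, without ZT3 replicate 1 or replicate 4 it was *Dbp*, and without ZT9 replicate 5 the 2 were *Csnk2a2* and *Dbp*. Array weights and the omission of ZT3 replicate 3 shared 49 genes, each with the same direction in both (63.6% and 53.3% of their calls). The array weight of this library was 0.227, the lowest of the 10 compared, so these settings are not independent of each other. The adjusted p of *Dbp* ranged from 0.00158 to 0.248 over 32 alternatives and was under 0.05 in 11.

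Different changes in sham numbered 1 with median-of-ratios scaling (*Btbd1*), 1 with no filter (*Tub*) and 0 to 4 with 1 mouse left out (4 without sham ZT15 replicate 3). Different changes in KO numbered 21 with array weights, 5 with an intensity trend and 0 to 35 with 1 mouse left out (13 without KO ZT15 replicate 1, 4 without KO ZT15 replicate 3, 35 without control ZT3 replicate 3).

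The labels give mice of different groups the same replicate numbers, but same-numbered libraries did not deviate together (r of −0.237 to 0.163), and 1 of 5 ZT3 libraries correlated best with its own number. With the replicate block, 0 genes were higher and 0 lower, the adjusted p of *Dbp* was 0.248, and the exact sign-flip p of *Cd80* was 0.0625, the smallest that 5 pairs allow. The exact permutation p of *Cd80* was 0.0159 with each mouse left out, the smallest possible, and 0.0159 with median-of-ratios scaling.

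Small log2 differences changed sign for *Per2* (0.14 with array weights, and −0.47 to 0.012 with 1 mouse left out), *Nr1d1* (−0.51 to 0.056 with 1 mouse left out), *Nr1d2* (−0.54 to 0.0067), *Mtor* (−0.039 to 0.29), *Cd86* (−0.049 with median-of-ratios scaling and without ZT3 replicate 3) and *5031439G07Rik* (−2.03e-05 with median-of-ratios scaling, and −0.10 to 0.14 with 1 mouse left out). The cause was not tested.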
